A study of Mus musculus with 9 samples.

Results

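Transcripts of sorted brain endothelial cells were compared between 6 libraries from mice with the APP/PS1 transgenes and 3 libraries from WT mice. The members were chosen by genotype label alone: 3 libraries labelled APP/PS1 and 3 labelled APP/PS1xRIPK1KD formed the transgenic arm, so that all 9 libraries of the study were used, and each of the 13317 genes that passed a filter on low counts was tested. The question is what the 2 transgenic genotypes have in common against WT. All 9 mice were C57BL/6, 6 months old and labelled male, and no treatment is named. WT mice carry neither alteration, APP/PS1 mice carry the transgenes, and APP/PS1xRIPK1KD mice carry the transgenes and in addition an alteration of Ripk1 that the labels abbreviate KD without spelling it out. What drives the transgenes, and how the lines were bred, the labels do not say. Each library came from 20000 cells of a brain homogenate that were positive for CD31, the endothelial surface protein encoded by Pecam1, and lacked CD45, which leukocytes carry. Each label describes 1 mouse, and the tests set differences against the spread between these libraries. In the 6 against 3 comparison that spread includes any difference between the 2 transgenic genotypes.

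APP/PS1 mice carry transgenes that raise the release of amyloid peptide from the amyloid precursor protein, and they deposit amyloid in the brain parenchyma and along vessels. Brain endothelial cells form the blood-brain barrier together with pericytes and smooth muscle cells, which share their basement membrane and are called mural cells, and with the endfeet of astrocytes. RIPK1 is a kinase recruited to the receptor for tumour necrosis factor that can start necroptosis through RIPK3 and MLKL.

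Total expected counts lay between 16263792 and 52413200 per library and did not separate the arms (exact 2-sided permutation p = 0.857). Levels are given as CPM on library sizes scaled by TMM. With 0 reads, a transcript may still stand at up to 0.189 CPM in the shallowest library and up to 0.0541 in the one with the lowest limit, taking 3 counts as the floor, which covers counting error only. Other measures did separate the arms. The ribosomal RNA precursor Rn45s took 29.6% to 33.8% of the counts in WT and 15.8% to 28.6% in the transgenic libraries, and the TMM scaling factors lay between 0.888 and 0.954 in WT and between 0.961 and 1.15 in the transgenic libraries (exact 2-sided permutation p = 0.0238 for each, the smallest the design allows). With library totals in place of TMM, an alternative chosen after seeing the data, the median log2 fold change of all genes was 0.21 rather than 0.01, so every change given here is relative to the TMM scale. Against the label male, Xist stood between 264 and 530 CPM in replicates 1 and 2 of all 3 genotypes, where Uty, Kdm5d, Ddx3y and Eif2s3y, 4 transcripts of the Y chromosome, summed to at most 0.435 CPM. In replicate 3 of each genotype that sum was 150 to 185 CPM and Xist was at most 4.78 CPM. The split is balanced over the arms, and results are also given without replicate 3.

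Few single transcripts separated the arms. Of 13317 genes, edgeR's quasi-likelihood test (2-sided, Benjamini-Hochberg adjusted) called 8 (0.0601%) at an FDR under 0.05, 5 of them higher (0.0375%) and 3 lower (0.0225%). The higher ones described here were Atp13a5, Vtn, Rasl12 and Gm14434, and the lower ones Kbtbd11, Tmem252 and Galnt15. Atp13a5, Rasl12 and Gm14434 had fewer than 10 counts in every WT library. They passed the filter on low counts through the transgenic libraries, which favours a call as higher. For all 8 called genes the 6 transgenic libraries lay on the same side of the 3 WT libraries. The genes were called on these same values, so this is no separate support. That held for 418 of all genes tested (3.14%), 205 above WT (1.54%) and 213 below it (1.60%). At an unadjusted p under 0.05 there were 883 genes (6.63%), 488 higher (3.66%) and 395 lower (2.97%). Each transgenic genotype was also set against WT in 1 model, and the larger of the 2 p-values was kept for each gene. Genes whose 2 fold changes differed in sign could not pass. By this rule 2 genes passed an FDR of 0.05 (0.0150%), of which Atp13a5 is named here, and 261 passed an unadjusted p of 0.05 (1.96%). DESeq2 called 104 of 16044 genes (0.648%), 78 higher (0.486%) and 26 lower (0.162%), limma-voom 0 and the edgeR exact test 17 and 17. Without 1 library at a time the count of called genes was 2 to 7, and without replicate 3 of all genotypes it was 3, of which 1 is among the 8.

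Atp13a5, which encodes a P5-type ATPase and marks pericytes in the brain, was almost absent from WT. Its level was 0.266, 0.211 and 0.0642 CPM in WT, 4.09, 7.66 and 8.36 in APP/PS1 and 3.51, 6.55 and 6.94 in APP/PS1xRIPK1KD. The lowest transgenic library was thus well above the highest WT library, in both genotypes. The log2 fold change was 5.11 ± 0.604 (SE, edgeR quasi-likelihood FDR 0.00663). In counts, 20 reads in all 3 WT libraries stood against 1741 in the transgenic ones, a ratio of 38.5 with a 95% counting interval from 24.8 to 63.2. That interval pools the reads of each arm, so it leaves out the spread between mice. It also counts PCR copies as separate reads, so it is too narrow. The call held without each of the 9 libraries in turn (FDR 0.0113 to 0.0448) but was at an FDR of 0.189 without replicate 3 of all genotypes. Atp13a5 spans bases 29231851 to 29378732 of chromosome 16 on the minus strand (GRCm38).

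Vtn encodes vitronectin, a matrix glycoprotein that pericytes secrete in the brain. WT libraries held 9.65, 3.24 and 7.47 CPM, APP/PS1 libraries 48.2, 52.9 and 59.5, and APP/PS1xRIPK1KD libraries 25.5, 26.9 and 47.0. All 6 transgenic values were above WT, and every APP/PS1 value was above every APP/PS1xRIPK1KD value. The log2 fold change was 2.68 ± 0.377 (SE, edgeR quasi-likelihood FDR 0.0209), from 6.79 ± 3.26 CPM in WT (SD, n = 3) to 43.3 ± 14.0 in the transgenic arm (SD, n = 6). Vtn was past the threshold without 4 of the 9 libraries in turn, and its FDR was 0.0615 without WT replicate 2, 0.104 without WT replicate 3, 0.0711 without APP/PS1 replicate 1, 0.054 without APP/PS1 replicate 2 and 0.0642 without APP/PS1xRIPK1KD replicate 3. It spans bases 78499091 to 78502324 of chromosome 11 on the plus strand.

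Rasl12, a small GTPase of the Ras-like group, gave 1 read over the 3 WT libraries, in replicate 3, and 615 over the transgenic ones, a count ratio of 272 with a 95% counting interval from 48.6 to 10760. This interval too leaves out the spread between mice and counts PCR copies as separate reads. The level of Rasl12 in WT was 0, 0 and 0.0214 CPM. It was 2.45, 3.09 and 1.79 CPM in APP/PS1 and 1.20, 2.49 and 2.74 CPM in APP/PS1xRIPK1KD. The fitted log2 fold change was 7.70 ± 1.11 (SE, edgeR quasi-likelihood FDR 0.0209), a size that depends on the prior count since WT is near 0. Gm14434, a predicted zinc finger gene, stood at 0.0295, 0.132 and 0.0214 CPM in WT, 1.45, 12.7 and 6.58 in APP/PS1 and 6.71, 2.03 and 10.5 in APP/PS1xRIPK1KD. Its arms did not overlap, but the transgenic libraries differed widely among themselves. The log2 fold change of Gm14434 was 6.73 ± 0.976 (SE, edgeR quasi-likelihood FDR 0.0209), and the value is uncertain because the gene has near-identical copies on chromosome 2 among which RSEM apportions reads. With 1 library left out at a time, Rasl12 kept its call in 2 of 9 fits, those without APP/PS1 replicate 3 and without APP/PS1xRIPK1KD replicate 1 (FDR 0.0347 to 0.146 over all 9). Gm14434 kept its call in 3, those without APP/PS1 replicates 1 and 3 and without APP/PS1xRIPK1KD replicate 2 (0.0163 to 0.146).

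The 3 called transcripts that were lower in the transgenic arm are expressed at moderate levels. Kbtbd11, which encodes a kelch repeat and BTB domain protein, stood at 169, 201 and 177 CPM in WT, 117, 110 and 102 in APP/PS1 and 86.0, 102 and 84.2 in APP/PS1xRIPK1KD. Tmem252, a transmembrane protein gene placed here in the list of venous endothelium, stood at 276, 232 and 244 CPM in WT, 129, 168 and 122 in APP/PS1 and 98.9, 94.9 and 107 in APP/PS1xRIPK1KD. Galnt15, of the family of enzymes that start O-linked glycosylation, stood at 38.4, 35.7 and 39.6 CPM in WT, 19.5, 21.0 and 19.4 in APP/PS1 and 17.1, 17.3 and 22.1 in APP/PS1xRIPK1KD. In each of the 3 genes the highest transgenic value was below the lowest WT value. The log2 fold changes were -0.86 ± 0.122 for Kbtbd11, -1.06 ± 0.159 for Tmem252 and -0.97 ± 0.148 for Galnt15 (SE, edgeR quasi-likelihood FDR 0.0209, 0.0254 and 0.0278). All 3 remained lower but lost their calls with library totals in place of TMM, at -0.67, -0.86 and -0.77 (FDR 0.2547, 0.266 and 0.266). Without 1 library at a time Kbtbd11 was past the threshold in 3 of 9 fits, those without an APP/PS1 library (FDR 0.0225 to 0.118 over all 9), Tmem252 in 1, without APP/PS1 replicate 2 (0.00683 to 0.146), and Galnt15 in 0 (0.054 to 0.146).

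**Figure D1:**
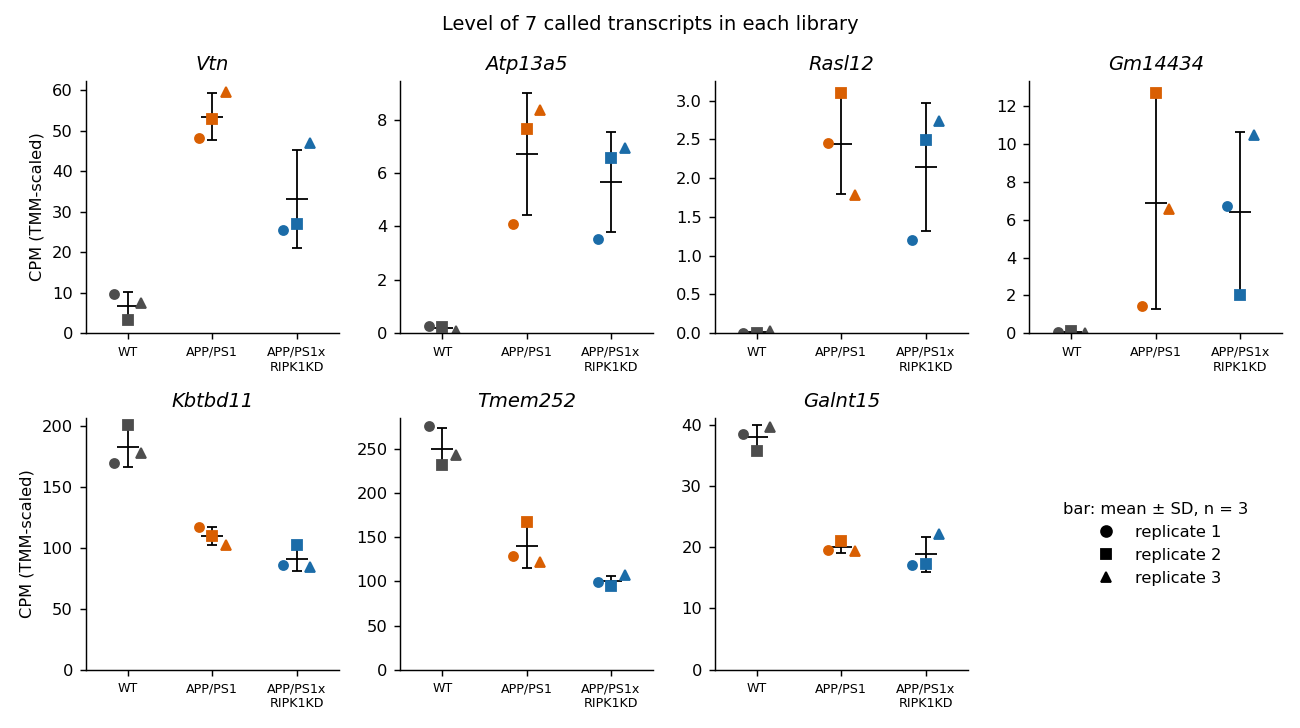
Level in CPM on the TMM scale (linear axes from 0) of 7 called transcripts in each of the 9 libraries, by genotype, with marker shapes for replicate numbers and bars for mean ± SD (n = 3). In each panel the 6 transgenic libraries lie on 1 side of the 3 WT libraries, as for Atp13a5 at 3.51 to 8.36 CPM against at most 0.266 in WT.

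Next in rank were genes whose arms did not overlap but which missed the threshold (edgeR quasi-likelihood FDR 0.256 to 0.452). On the higher side stood Hsdl1, of the hydroxysteroid dehydrogenase-like family, Insig1, which holds the sterol-regulated transcription factor complex in the endoplasmic reticulum, Senp6, a SUMO protease, Rgs5, a regulator of G-protein signalling in pericytes, and Braf, a kinase of the MAP kinase pathway. Senp6 was very even in WT, at 20.1, 19.2 and 20.1 CPM, and ranged from 29.4 to 39.9 with a median of 31.9 in the transgenic arm (log2 fold change 0.74 ± 0.156 SE). Braf was as even, at 29.6, 28.5 and 28.8 CPM in WT and 37.5 to 48.9 with a median of 44.4 in the transgenic arm (0.60 ± 0.132 SE). Insig1 stood at 25.3, 26.1 and 38.8 CPM in WT and 46.1 to 56.9 with a median of 50.9 in the transgenic arm (0.77 ± 0.158 SE), and Hsdl1 at 35.2 to 44.0 CPM against 53.2 to 76.0 (0.70 ± 0.141 SE). For these 4 genes WT and transgenic libraries were apart by less than a doubling of the mean.

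On the lower side stood Por, the reductase that supplies electrons to cytochrome P450 enzymes, Tmem192, a lysosomal membrane protein, Midn, which encodes midnolin, H2-Q8, a class I histocompatibility gene, Tctn2, of the ciliary transition zone, Sh3bgrl2 and Grrp1. Por stood at 153, 175 and 155 CPM in WT and 98.1 to 122 with a median of 107 in the transgenic arm (log2 fold change -0.57 ± 0.111 SE, edgeR quasi-likelihood FDR 0.256). Tmem192 stood at 35.2, 31.8 and 17.9 CPM in WT and 7.78 to 15.5 with a median of 13.8 in the transgenic arm (-1.14 ± 0.25 SE). Tctn2 stood at 13.2, 14.6 and 16.4 CPM in WT and 4.55 to 9.28 in the transgenic arm (-1.11 ± 0.264 SE). The log2 fold changes of the other 4 were -0.86 for Midn, -1.82 for H2-Q8, -1.05 for Sh3bgrl2 and -0.60 for Grrp1. H2-Q8 stood at 47.1, 57.6 and 165 CPM in WT and 15.7 to 38.8 in the transgenic arm, and its log2 fold change was -1.03 without WT replicate 3. H2-Q8 is a close copy of other class I genes, so its reads may be shared with them.

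Most transcripts of mural cells had higher values in the transgenic arm. Of the 18 listed, 17 lay above 0, and their median on the log2 scale was 2.21, against 51.3% above 0 and a median of 0.01 over all genes tested. The 2 called were Atp13a5 and Vtn, 11 were higher and 0 lower at an unadjusted p under 0.05 in edgeR's quasi-likelihood test, and in 8 all 6 transgenic libraries were above WT. Over all genes these shares were 3.66% higher, 2.97% lower and 1.54% above WT. Members near 0 in WT, such as Atp13a5, Ndufa4l2 and Cnn1, passed the filter on low counts through the transgenic libraries. Such members could hardly lie below 0, which raises the counts of higher members in this list. DESeq2 called 9 members (0.648% of all genes), the edgeR exact test 6 and limma-voom 0. With the replicate number as a block 0 were called, likewise without replicate 3 of all genotypes, and 1 or 2 without 1 library at a time. The cells were sorted on an endothelial marker, and in such bulk samples more cells of a type and more RNA per cell cannot be told apart. Kcnj8 and Abcc9, which form the ATP-sensitive potassium channel of pericytes, are an example. Kcnj8 stood at 0.797, 0.554 and 0.278 CPM in WT and between 1.78 and 6.85 with a median of 4.15 in the transgenic arm (log2 fold change 3.04 ± 0.611 SE, FDR 0.281). Abcc9 stood at 0.561, 0.185 and 1.48 CPM in WT and between 2.88 and 14.97 with a median of 4.89 in the transgenic arm (3.08 ± 0.729 SE, FDR 0.452). Neither arm overlapped the other in these 2 genes.

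Rgs5 stood at 6.40, 1.61 and 6.93 CPM in WT and between 12.9 and 46.6 with a median of 27.0 in the transgenic arm (log2 fold change 2.44 ± 0.501 SE, edgeR quasi-likelihood FDR 0.293). Ndufa4l2, a mitochondrial protein of pericytes, stood at 0.0885, 0.237 and 0.150 CPM in WT and between 0.469 and 3.56 in the transgenic arm (3.63 ± 0.898 SE, FDR 0.465). Higd1b, another mitochondrial protein gene, and Notch3, the Notch receptor of mural cells, also had no overlap, at 0.290 to 1.30 CPM against 1.63 to 6.08 and at 2.61 to 4.13 against 4.22 to 7.05. Ndufa4l2, Higd1b, Notch3 and the smooth muscle gene Cnn1 were named after their values were seen. Cnn1, calponin, did overlap: it stood at 0 to 0.059 CPM in WT, 1.11 to 2.58 in APP/PS1, and 0, 1.30 and 0.018 in APP/PS1xRIPK1KD. The median of the list was 1.82 to 2.84 without 1 library at a time and 1.91 without replicate 3 of all genotypes, with 17 or 18 members above 0 in each of these fits. At a mean of at least 5 CPM only 7 members were tested, and 7 lay above 0 with a median of 2.14. All these levels were low beside those of endothelial genes, and the summed CPM of the list overlapped between the arms, at 45.9 to 175 in WT and 113 to 481 in the transgenic arm.

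**Figure D2:**
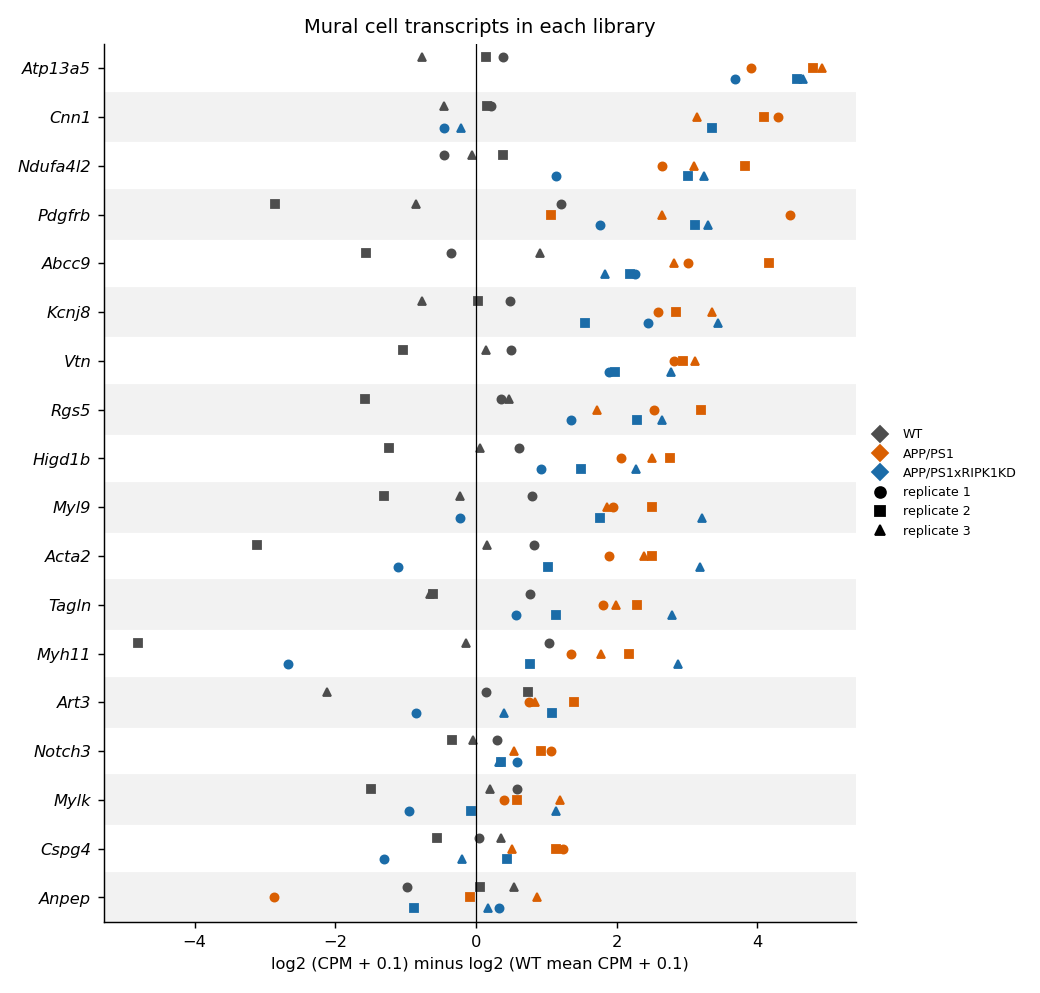
Each of the 18 mural cell transcripts in each library as log2 (CPM + 0.1) minus log2 of the WT mean CPM + 0.1, with colours for genotypes and shapes for replicate numbers. In 8 genes, among them Atp13a5, Vtn and Rgs5, every transgenic point lies right of every WT point.

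Markers of other neighbouring cell types were measured in the same way, and edgeR's quasi-likelihood test called 0 of their members. DESeq2 called 1 of the fibroblast list, 2 of the astrocyte list, 1 of the microglial list and 1 of the choroid plexus list, and 0.648% of all genes. Perivascular fibroblasts had 6 of 7 tested members above 0 and a median change (log2) of 2.05, oligodendrocytes 6 of 8 with 1.91, astrocytes 7 of 8 with 1.53, microglia 9 of 11 with 0.60 and choroid plexus 4 of 6 with 1.77. Gjb6, Ntsr2 and Mlc1 of the astrocyte list had 0 counts in all WT libraries, and the median of that list is 1.13 with these genes at their lower bound, for which the highest floor of a WT library was used. These genes, and Mog of the oligodendrocyte list, passed the filter on low counts only through the transgenic libraries and could only lie above 0. At a mean of at least 5 CPM the median was -0.14 for fibroblasts (1 of 2 above 0) and -0.02 for oligodendrocytes (1 of 3). It was 0.67 for astrocytes, 0.24 for microglia and 0.72 for choroid plexus, each with 1 of 2 above 0. Summed CPM overlapped between the arms in every one of these lists: 138 to 318 in WT and 98.2 to 195 in the transgenic arm for fibroblasts, 590 to 751 and 426 to 712 for oligodendrocytes, 39.4 to 111 and 72.3 to 94.8 for astrocytes, 54.5 to 109 and 60.7 to 117 for microglia, and 56.0 to 90.2 and 70.0 to 320 for choroid plexus. Fibroblast and oligodendrocyte sums were thus not higher in the transgenic arm although most members were. Lum of the fibroblast list was at 0 in all libraries. The part of these cell types in the other results was not tested. By genotype the medians were 3.01 in APP/PS1 and 0.97 in APP/PS1xRIPK1KD for fibroblasts, 2.63 and 0.33 for oligodendrocytes, 1.09 and 1.33 for astrocytes, 0.61 and 0.51 for microglia and 1.27 and 2.13 for choroid plexus, with the same WT libraries in both values. Without 1 library at a time the pooled medians ran from 1.54 to 2.99 for fibroblasts, 0.92 to 2.19 for oligodendrocytes, 1.21 to 1.96 for astrocytes and 0.04 to 1.34 for microglia. The oligodendrocyte median was lowest without APP/PS1 replicate 3, the microglial median was lowest without WT replicate 3 and highest without WT replicate 2, and that of choroid plexus was highest, at 2.83, without WT replicate 3. Without replicate 3 of all genotypes the microglial median was -0.17 with 4 of 11 above 0.

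Within these lists, Kcnj13, a potassium channel of choroid plexus epithelium, stood at 0.207, 0.185 and 0.235 CPM in WT and between 0.616 and 6.50 with a median of 2.51 in the transgenic arm, with no overlap (log2 fold change 3.67 ± 0.905 SE, edgeR quasi-likelihood FDR 0.465). Ttr, transthyretin, the main secreted protein of that epithelium, stood at 66.6, 38.4 and 58.2 CPM in WT and between 49.5 and 296 in the transgenic arm, where 1 library overlapped WT. Cx3cr1, the fractalkine receptor of microglia, stood at 0.354, 0.659 and 0.300 CPM in WT and between 1.01 and 4.02 in the transgenic arm, with no overlap (2.33 ± 0.782 SE, FDR 0.625). Apod of the fibroblast list went the other way, at 128, 144 and 314 CPM in WT and 86.1 to 183 in the transgenic arm (-0.82 ± 0.303 SE, FDR 0.682, and a log2 fold change of -0.30 without WT replicate 3). Col3a1, fibrillar collagen III, stood at 0 to 0.620 CPM in WT and 0.122 to 7.15 in the transgenic arm, and Mbp, myelin basic protein, at 0.290 to 1.60 against 0.184 to 13.8, both with overlap. Other leukocyte markers summed to 1.66 to 3.72 CPM in WT and 1.32 to 3.43 in the transgenic arm, and neuronal markers to 6.76 to 13.6 and 3.65 to 13.0. Erythroid markers were the most abundant of the other cell types, at 2122 to 2771 CPM in WT and 1962 to 9516 in the transgenic arm.

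The endothelial profile itself was present in all libraries and did not separate the arms. Of 15 endothelial identity genes 4 were above 0, and the median change (log2) was -0.06 (0.14 with library totals), with 0 members at an unadjusted p under 0.05 (edgeR quasi-likelihood). Cldn5, the main claudin of brain endothelial tight junctions, stood at 5858 to 7772 CPM in WT and 5597 to 8458 in the transgenic arm, a log2 difference of 0.07 ± 0.145 (SE). Pecam1 stood at 1164 ± 81.1 CPM in WT (SD, n = 3) and 1169 ± 96.7 in the transgenic arm (SD, n = 6), and the endothelial cadherin Cdh5 at 576 ± 21.7 and 572 ± 50.8. Of 19 blood-brain barrier genes 9 were above 0, with a median of -0.03 (0.17 with library totals), 1 higher and 2 lower at an unadjusted p under 0.05 (3.66% and 2.97% over all genes). Those closest to a call were the transferrin receptor Tfrc, at 137, 223 and 265 CPM in WT and 240 to 392 in the transgenic arm (0.56 ± 0.201 SE, FDR 0.655), and the amino acid carrier Slc38a5, at 225, 216 and 448 against 164 to 235 (-0.52 ± 0.207 SE, FDR 0.713). In both genes the arms overlapped, and the log2 fold change was 0.33 for Tfrc without WT replicate 1 and -0.10 for Slc38a5 without WT replicate 3. In 1 other barrier gene all 6 transgenic libraries were below WT, as in 1.60% of all genes.

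**Figure D3:**
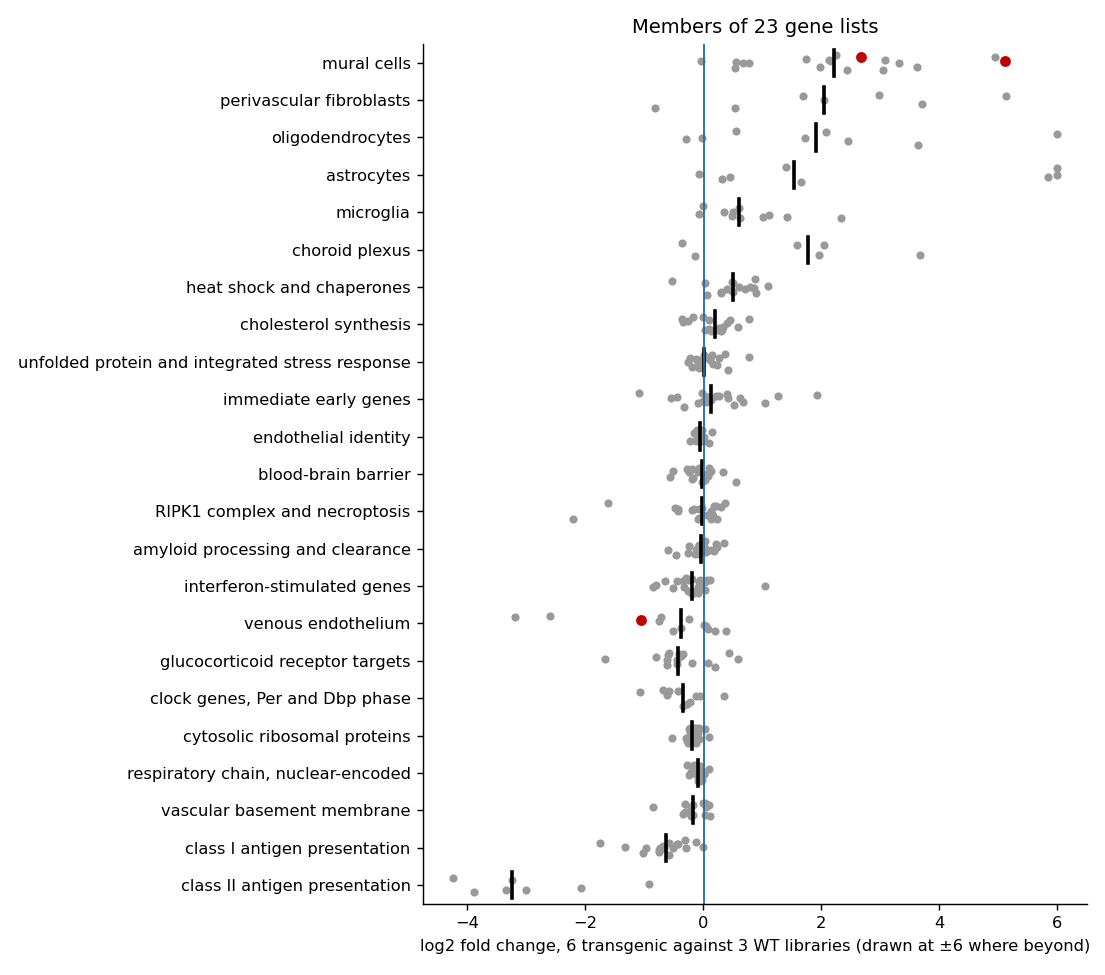
Log2 fold change of the 6 transgenic against the 3 WT libraries for the tested members of 23 gene lists (grey points, red where called at an FDR under 0.05, values beyond 6 drawn at 6), with the list median as a black bar and the median of all genes tested as a blue line. Mural cell members lie right of the line with a median of 2.21, endothelial identity members close to it with -0.06, and class II presentation members left of it with -3.25.

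Heat shock proteins and other chaperones, which fold nascent and damaged proteins, mostly had higher values in the transgenic arm, with no member called. The classic members are induced when heat shock factor binds repeats of the bases GAA in alternating orientation in their promoters. Of 17 listed, 16 lay above 0, and the median log2 fold change was 0.49, 10 were higher and 1 lower at an unadjusted p under 0.05 in edgeR's quasi-likelihood test, where 3.66% of all genes were higher and 2.97% lower. In 5 of them all 6 transgenic libraries were above WT (1.54% of all genes), Hsph1, Hsp90aa1, Hsp90ab1, Hspa4l and Hspd1. The summed CPM of the list did not overlap between the arms: it was 4614, 5046 and 4635 in WT, 6248, 7618 and 6468 in APP/PS1 and 5392, 5904 and 8141 in APP/PS1xRIPK1KD. DESeq2 called 2 members (0.648% of all genes). The median was 0.44 to 0.56 without 1 library at a time and 0.59 without replicate 3 of all genotypes, where 14 of 17 were above 0.

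The promoters of Hsph1 and Hspd1 are shown because both genes had no overlap between the arms and hold such a repeat. Each is the 250 bases before the gene's start in RefSeq on GRCm38.p6, 5′ to 3′ on the gene's strand, with the motif match in capitals. The Hsph1 window is chr5:149636337-149636586 on the minus strand and the Hspd1 window chr1:55087933-55088182 on the minus strand. GENCODE starts Hsph1 at base 149636376, inside this window, so the Hsph1 match lies before the RefSeq start but after the GENCODE start.
Hsph1: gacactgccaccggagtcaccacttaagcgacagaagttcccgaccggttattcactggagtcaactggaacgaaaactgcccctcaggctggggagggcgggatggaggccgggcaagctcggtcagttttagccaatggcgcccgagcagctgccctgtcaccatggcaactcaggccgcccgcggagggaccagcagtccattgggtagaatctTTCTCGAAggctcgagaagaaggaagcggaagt
Hspd1: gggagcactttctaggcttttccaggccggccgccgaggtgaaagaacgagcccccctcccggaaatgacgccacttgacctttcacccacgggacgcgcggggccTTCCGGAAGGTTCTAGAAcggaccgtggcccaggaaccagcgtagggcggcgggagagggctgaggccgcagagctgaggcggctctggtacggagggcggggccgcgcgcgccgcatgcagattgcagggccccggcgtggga
The capitals in Hsph1 are a match to TTCNNGAA, and those in Hspd1 are 2 overlapping matches to a longer motif, in which TTCNNGAA is followed by NN and a further TTC. Both strands were read. Of the 17 listed genes 13 had a promoter in the table, and TTCNNGAA was found in 4 of them (Hsph1, Dnajb4, Hspd1 and Hspe1) and in 8.11% of all 27025 genes. The longer motif, which contains the shorter one, was found in 2 of 13 (Hspd1 and Hspe1) and in 0.514% of all genes. Hspd1 and Hspe1 are divergent neighbours that share 1 promoter region.

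Hsph1, the chaperone HSP105, stood at 31.4, 37.2 and 34.4 CPM in WT, 55.4, 67.5 and 44.4 in APP/PS1 and 46.6, 75.9 and 88.2 in APP/PS1xRIPK1KD (log2 fold change 0.88 ± 0.212 SE, edgeR quasi-likelihood FDR 0.452). Hsp90aa1, the inducible HSP90, stood at 234, 261 and 258 CPM in WT, 430, 531 and 335 in APP/PS1 and 304, 357 and 509 in APP/PS1xRIPK1KD (0.71 ± 0.173 SE, FDR 0.465). Hsp90ab1, the constitutive HSP90, stood at 988, 986 and 1018 CPM in WT and 1142 to 1682 with a median of 1370 in the transgenic arm (0.48 ± 0.129 SE, FDR 0.57). In all 3 the lowest transgenic library was above the highest WT library, while the transgenic libraries spread more than those of WT. Hspa4l, a relative of Hsph1, stood at 5.93 to 10.5 CPM in WT and 12.0 to 29.5 in the transgenic arm (1.10 ± 0.335 SE), and the mitochondrial chaperonin Hspd1 at 77.9 to 99.4 against 101 to 132 (0.30 ± 0.124 SE, and 0.19 without WT replicate 1).

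Other members overlapped between the arms. Hspa1a, the inducible HSP70, stood at 145, 110 and 127 CPM in WT and 120 to 392 with a median of 221 in the transgenic arm (log2 fold change 0.89 ± 0.366 SE, edgeR quasi-likelihood FDR 0.725), and Hspa8, the constitutive HSP70, at 1702 to 1960 against 1850 to 3364 (0.49 ± 0.176 SE, FDR 0.655). Bag3, a partner of HSP70, was the exception, at 112, 110 and 64.3 CPM in WT and 52.7 to 74.8 in the transgenic arm (-0.53 ± 0.172 SE, FDR 0.625). Hspa4l, Hsp90ab1, Hspd1, Hspa1a, Hspa8 and Bag3 were named after their values were seen. Chaperones of the endoplasmic reticulum belong to a different list, that of the unfolded protein and integrated stress response, in which 10 of 19 were above 0 with a median of 0.00. Its members Hspa5 and Hsp90b1 stood at 358 to 451 CPM against 410 to 610 and at 411 to 504 against 480 to 652, both with overlap.

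**Figure D4:**
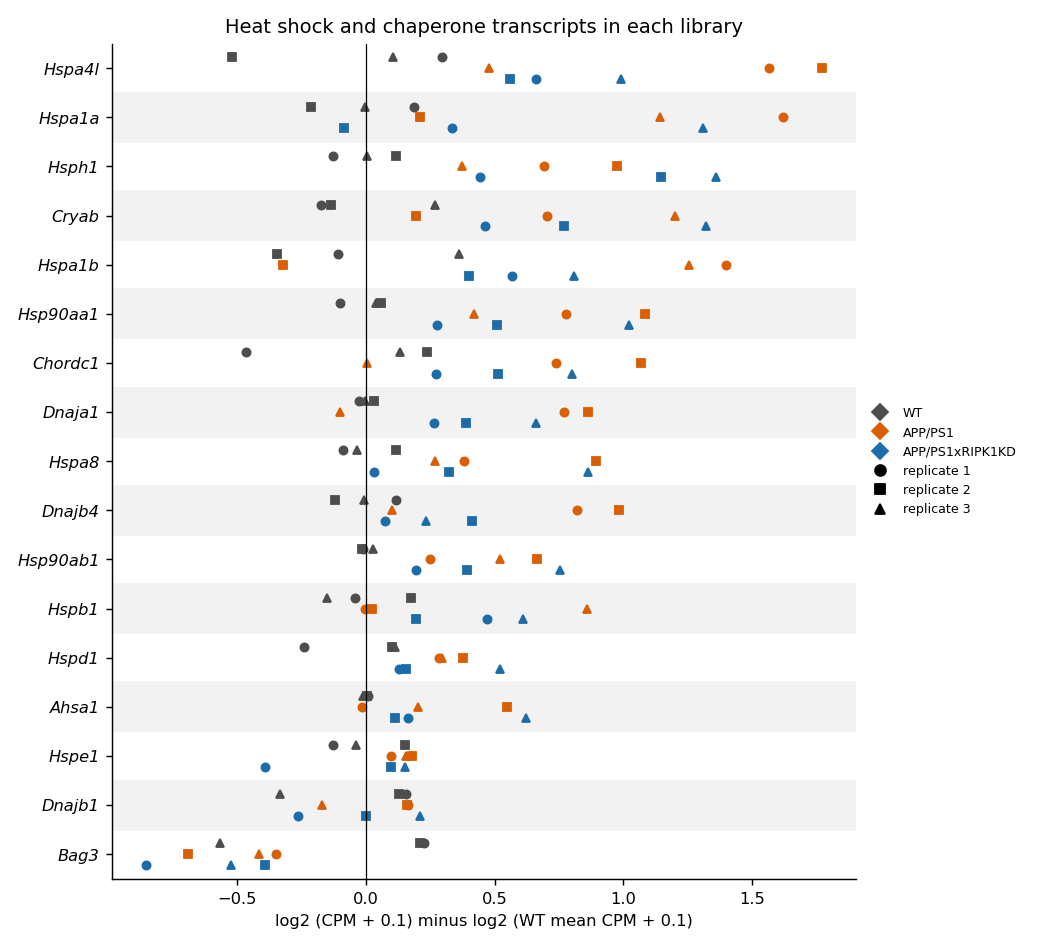
Each of 17 heat shock and chaperone transcripts in each library as log2 (CPM + 0.1) minus log2 of the WT mean CPM + 0.1, with colours for genotypes and shapes for replicate numbers, ordered by fold change. Transgenic points lie right of all WT points in Hspa4l, Hsph1, Hsp90aa1, Hsp90ab1 and Hspd1, and Bag3 at the bottom lies left.

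Genes of antigen presentation mostly had lower values in the transgenic arm, and much of that rested on WT replicate 3. Class I molecules show peptides from inside the cell to cytotoxic T cells. Of 18 class I genes 0 were above 0, and the median change (log2) was -0.63. Among them 12 were lower at an unadjusted p under 0.05 (edgeR quasi-likelihood), where 2.97% of all genes were lower, and 0 were called. Their summed CPM was 8017, 8443 and 16140 in WT and 5955 to 8185 in the transgenic arm, and without WT replicate 3 the median was -0.18 with 3 of 18 above 0. In 2 genes, H2-M3 and H2-T23, all 6 transgenic libraries were below all 3 of WT (1.60% of all genes). H2-M3, which presents formylated peptides, stood at 46.9, 51.2 and 63.8 CPM in WT and 30.2 to 42.2 with a median of 36.0 in the transgenic arm (-0.59 ± 0.147 SE, FDR 0.468). H2-T23, which encodes Qa-1, was named after its values were seen and stood at 327, 337 and 532 CPM in WT and 235 to 319 in the transgenic arm (-0.44 ± 0.152 SE, FDR 0.647), with a log2 fold change of -0.18 without WT replicate 3.

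Class II molecules present peptides from outside the cell and are found mainly on professional antigen-presenting cells. Of 7 tested class II genes 0 were above 0, and the median change (log2) was -3.25, with 5 lower at an unadjusted p under 0.05 (edgeR quasi-likelihood). Over all genes 2.97% were lower at that threshold. Cd74, the invariant chain, stood at 6.11, 6.54 and 356 CPM in WT and 1.98 to 16.7 in the transgenic arm, and H2-Eb1 at 2.39, 3.37 and 65.2 against 0.365 to 3.76. A single WT library thus held the high values, and without WT replicate 3 the median of the list was 0.11 with 5 of 7 above 0. The same library was apart in interferon-stimulated genes, where 5 of 25 were above 0 with a median of -0.19, and 17 of 25 with 0.08 without it. Iigp1, an interferon-induced GTPase, stood at 56.1, 65.0 and 211 CPM in WT and 52.3 to 77.8 in the transgenic arm, and Zbp1, a nucleic acid sensor that can engage RIPK3, at 6.34, 5.09 and 47.3 against 4.49 to 9.77. The venous endothelial list, which holds Tmem252, went from a median of -0.38 with 5 of 13 above 0 to 0.21 with 9 of 13 without WT replicate 3. The reason for the values of that library was not tested.

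**Figure D5:**
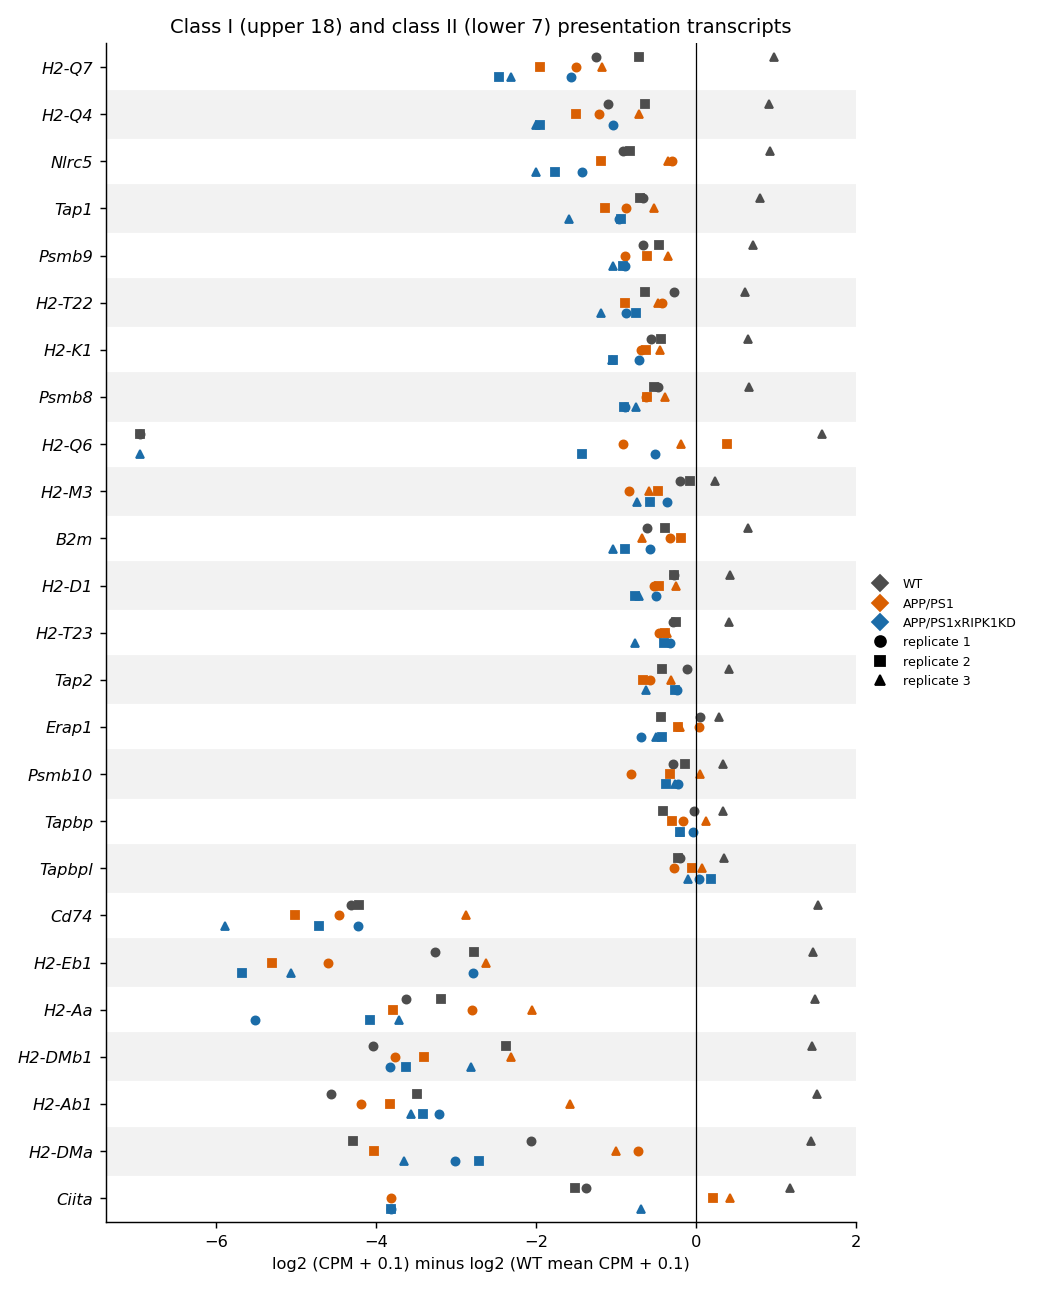
Each of 18 class I (upper) and 7 class II (lower) antigen presentation transcripts in each library as log2 (CPM + 0.1) minus log2 of the WT mean CPM + 0.1, with colours for genotypes and shapes for replicate numbers. The triangle of WT replicate 3 lies far right of the other WT points for class II genes such as Cd74 (356 CPM against 6.11 and 6.54).

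Cytosolic ribosomal protein genes mostly had slightly lower values, with 2 of 28 above 0 and a median change (log2) of -0.19, 5 lower at an unadjusted p under 0.05 and 0 called (edgeR quasi-likelihood). Over all genes 2.97% were lower at that p. Rpl27, of the large subunit, stood at 139, 135 and 124 CPM in WT and 101 to 115 in the transgenic arm, with no overlap (-0.29 ± 0.0969 SE, FDR 0.625). With library totals in place of TMM the median of this list was 0.01 with 16 of 28 above 0, below the median of 0.21 of all genes on that scale. Nuclear-encoded respiratory chain genes had 4 of 27 above 0 and a median of -0.08, which was 0.12 with library totals. The Rn45s share was also lower in every transgenic library than in WT, and its part in the values of these lists was not tested.

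Targets of the glucocorticoid receptor, the nuclear receptor of stress hormones, had 4 of 16 above 0 and a median change (log2) of -0.42, 1 higher and 3 lower at an unadjusted p under 0.05 (3.66% and 2.97% over all genes). Without 1 library at a time the median was -0.61 to -0.21, the latter without WT replicate 2, and it was -0.22 with library totals. Mt2, a metallothionein, stood at 57.5, 102 and 58.6 CPM in WT and 29.0 to 64.8 in the transgenic arm (-0.62 ± 0.236 SE, edgeR quasi-likelihood FDR 0.684), with a log2 fold change of -0.29 without WT replicate 2. Pdk4, pyruvate dehydrogenase kinase, was among the higher ones, at 8.56 to 11.0 CPM against 9.93 to 19.95 (0.59 ± 0.243 SE, FDR 0.724). Clock genes of the Per and Dbp phase had 1 of 11 above 0 with a median of -0.34, and those of the opposite Arntl phase 6 of 7 with 0.30, and 0 members of either list were at an unadjusted p under 0.05. The direction of the first turned without WT replicate 2, where 9 of 11 were above 0 with a median of 0.15, and its median was -0.65 to 0.15 without 1 library at a time. The median of the Arntl phase ran from 0.12, without APP/PS1xRIPK1KD replicate 1, to 0.86, without WT replicate 1. Per1 stood at 180, 262 and 99.2 CPM in WT and 82.0 to 166 in the transgenic arm. The labels do not give the hour at which the mice were killed.

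Cholesterol synthesis genes had 13 of 18 above 0 and a median change (log2) of 0.19 and 2 higher at an unadjusted p under 0.05 (edgeR quasi-likelihood, 3.66% over all genes). Without 1 library at a time that median was 0.10 to 0.23, lowest without APP/PS1 replicate 3. Insig1, described above, was the 1 member with all 6 transgenic libraries above WT, as were 1.54% of all genes. Sqle, squalene epoxidase, stood at 7.94 to 12.1 CPM in WT and 10.2 to 16.3 in the transgenic arm (0.58 ± 0.237 SE, FDR 0.722). The vascular basement membrane list had 5 of 15 above 0 with a median of -0.18, which was 0.01 with library totals and -0.28 to -0.06 without 1 library at a time, and 0 at an unadjusted p under 0.05. Genes of amyloid processing and clearance had 9 of 20 above 0 and a median of -0.04 (0.16 with library totals). Adam10, the main alpha-secretase, stood at 234, 214 and 225 CPM in WT and 244 to 318 with a median of 285 in the transgenic arm, with no overlap (0.35 ± 0.104 SE, FDR 0.602), and Ncstn, a subunit of gamma-secretase, at 130 to 163 against 113 to 134 (-0.24 ± 0.107 SE, FDR 0.738). The mouse gene App stood at 1871 to 2221 CPM against 1705 to 2069. These values do not check the transgenic label, since no source used here says how reads of the transgenes were assigned.

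Genes of the RIPK1 complex and necroptosis had 10 of 21 above 0 and a median change (log2) of -0.02 (0.18 with library totals), and 3 lower at an unadjusted p under 0.05 (edgeR quasi-likelihood, 2.97% over all genes). Tnfrsf1a, the receptor for tumour necrosis factor, stood at 107, 113 and 157 CPM in WT and 75.3 to 119 with a median of 87.6 in the transgenic arm (-0.48 ± 0.157 SE, FDR 0.625), with a log2 fold change of -0.29 without WT replicate 3. Ripk1 stood at 45.0, 48.1 and 34.9 CPM in WT, 75.3, 52.9 and 40.9 in APP/PS1 and 31.4, 44.9 and 35.5 in APP/PS1xRIPK1KD. Ripk3 and Mlkl stood at 3.82 to 6.05 CPM against 2.92 to 7.85 and at 10.2 to 14.8 against 10.3 to 18.5, with overlap in all of these. In 1 other member of the list all 6 transgenic libraries were below WT, as in 1.60% of all genes. Tnfaip3, which encodes the inhibitor A20 and is a target of NF-kB, stood at 18.9, 7.28 and 14.9 CPM in WT and 16.7 to 32.0 in the transgenic arm (0.76 ± 0.299 SE, FDR 0.713), with a log2 fold change of 0.45 without WT replicate 2. The NF-kB list as a whole had 9 of 18 above 0.

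The 2 transgenic genotypes were also set against each other, in a contrast that uses no WT library. At an FDR under 0.05 edgeR's quasi-likelihood test called 1 of 13317 genes (0.00751%), and 637 passed an unadjusted p of 0.05 (4.78%). Of the 8 genes called for the pooled arm, 7 had a 95% interval of that difference that holds 0, which does not show that the genotypes are alike. The interval ran from -1.39 to 0.89 for Atp13a5, -1.94 to 1.56 for Rasl12, -1.76 to 1.52 for Gm14434, -1.42 to 0.04 for Vtn, -0.55 to 0.01 for Kbtbd11 and -0.48 to 0.31 for Galnt15, as log2 of APP/PS1xRIPK1KD over APP/PS1. For Tmem252 it ran from -0.79 to -0.17. Against WT, the log2 fold change of Tmem252 was -0.84 in APP/PS1 and -1.32 in APP/PS1xRIPK1KD, that of Kbtbd11 -0.74 and -1.01, that of Vtn 2.98 and 2.29, and that of Galnt15 -0.92 and -1.01. The paired values share the WT libraries.

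Other genes with unequal values in the 2 transgenic genotypes overlapped between WT and the pooled arm and were not called there (edgeR quasi-likelihood FDR 0.718 for Fos, 0.598 for Angpt2 and 0.625 for Ttr). Fos, an immediate early gene that responds to stimuli within minutes, stood at 34.7, 32.8 and 28.4 CPM in WT, 254.7, 72.2 and 220 in APP/PS1 and 45.3, 33.6 and 108 in APP/PS1xRIPK1KD. Against WT its log2 fold change was 2.51 in APP/PS1 and 0.96 in APP/PS1xRIPK1KD, and the difference between them had a 95% interval from -2.77 to -0.32. Angpt2, a ligand of the receptor Tek that endothelial cells release, stood at 12.1, 12.9 and 14.9 CPM in WT, 32.2, 26.7 and 24.8 in APP/PS1 and 22.7, 23.3 and 13.1 in APP/PS1xRIPK1KD. It was 1 library short of no overlap, with log2 fold changes of 1.07 and 0.57 and an interval of the difference from -1.04 to 0.04, which holds 0. For Ttr the log2 fold changes were 0.94 and 2.03, with an interval of the difference from 0.29 to 1.90. None of these 3 differences passed an FDR of 0.05 in edgeR's quasi-likelihood test.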

How the data were processed

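The deposited table holds expected counts, 1 row per gene symbol, and per the submitters' processing notes the authors made it with Bowtie 0.12.2 and RSEM on mm10 (GRCm38). The annotation and the RSEM version are not given in the sources used here. Per the labels' protocols, libraries were made by Smart-seq2 from poly(A)-primed cDNA, without strand or molecular identifiers, so antisense partners and PCR copies cannot be told apart.

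Expected counts were rounded, genes were kept by filterByExpr (minimum count 10, minimum total 15), which left 13317 of 23420, and libraries were scaled by TMM. edgeR 4.0.16 (R 4.3.3) fitted quasi-likelihood models with robust dispersion: 1 coefficient per arm for the 6 against 3 comparison, and 1 per genotype for each genotype against WT and for the difference between genotypes. FDR is the Benjamini-Hochberg adjusted p over all genes tested. Alternatives used DESeq2 1.42.0 and limma 3.58.1.

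Positions are those of GENCODE on GRCm38, matched by symbol. The 39 gene lists (584 members, 573 matched by symbol, 9 by an older symbol, 2 unmatched) and the comparison were chosen with earlier results of these data known. Genes were named where called (up to 12 per direction), filled to 10 per direction with genes of at least 5 CPM whose arms do not overlap, with the 2 members of smallest p at 1 CPM or more of each list without a call, and from a fixed set. Not every gene so selected is described, and 1 called gene is counted but not reported here by name. The authors' deposited table of 1 genotype against WT was not used.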

Additional observations from a re-analysis of the deposited data

Results flagged for a closer look

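In 7 of 81 genes examined, 1 of the 6 transgenic libraries stood apart from the others by a gap of more than 0.625 of their range, where chance gives about 1 in 20. APP/PS1 replicate 3 was the highest for Cd74 (16.7 CPM, next 6.47), Tnfrsf1a (119, next 89.4) and Hsp90b1 (652, next 544). APP/PS1 replicate 2 was the highest for Abcc9 (14.97 CPM, next 6.67) and Apod (183, next 108). The lowest value of Pecam1 was 976 CPM in APP/PS1 replicate 1 (next 1184), and the lowest value of H2-T23 was 235 CPM in APP/PS1xRIPK1KD replicate 3 (next 290.2).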

How the results depend on the processing

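Of 1586 values of named genes under 22 alternatives, 1477 kept their direction and side of the threshold, 65 were no longer called, 39 were newly called and 5 reversed. Those 5 were Cd74 (-4.80 to 0.040 without 1 library at a time), Zbp1 (-2.06 to 0.17) and Iigp1 (-1.13 to 0.063), each above 0 only without WT replicate 3 among those fits, and Zbp1 at 0.36 and Iigp1 at 0.15 without replicate 3 of all genotypes. Of 857 list medians, 56 moved by more than the spread of the transgenic libraries. The 8 called genes (5 higher, 3 lower) became 104 (78 and 26) with DESeq2, 0 (0 and 0) with limma-voom, 34 (17 and 17) with the edgeR exact test, 5 (2 higher) at a mean of at least 5 CPM, and 3 (3 higher, 0 lower) without replicate 3 of all genotypes. With library totals in place of TMM 0 were lower. Without 1 library at a time, 2 to 7 genes were called, 2 to 6 higher and 0 to 2 lower. Fits without 1 library, without a triple, or at a higher minimum have fewer samples or genes, and the other causes were not tested. The 2 genes called in both genotypes became 5 with no filter, 1 at a mean of at least 5 CPM, 0 with a term for Xist or Y-linked libraries, 1 without replicate 3 of all genotypes and 0 to 2 without 1 library. The 205 genes above and 213 below WT in all libraries became 669 and 60 with library totals, 1115 and 1232 without replicate 3 of all genotypes, and 279 to 636 and 277 to 741 without 1 library. With the replicate number as a block, 0 genes were called (0 higher, 0 lower, 0 in both genotypes). Same-number correlations of deviations were -0.0187 to 0.0983, and 4 of 9 libraries matched best with their own number. Replicate 3 of each genotype, with Y-linked transcripts, matched best with replicate 3 of another genotype. The values were 0.0983 for WT with APP/PS1xRIPK1KD and 0.0539 for APP/PS1 with APP/PS1xRIPK1KD.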
